A study of Homo sapiens with 4 samples.

Results

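Receptor tyrosine kinases are single-pass membrane proteins that dimerise when a ligand binds, phosphorylate each other on tyrosines and recruit adaptors that start RAS, phosphoinositide 3-kinase and phospholipase C gamma signalling. In early blood cells they carry survival and growth signals. FLT3 is the member of the family best known in leukemia with a rearranged MLL gene. The genes described here are 10 others, chosen by symbol: the class III receptors KIT, CSF1R, PDGFRA and PDGFRB, the insulin receptor family genes INSR and IGF1R, the TAM receptors TYRO3, AXL and MERTK, and the WNT5A receptor ROR1. Each symbol matched 1 entry, so the set is 10 of 23,368 entries of the deposited count table.

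The data are RNA-seq of 4 untreated human leukemia lines of the precursor B-cell type, kept in RPMI with serum. A t(4;11) translocation, which rearranges MLL, is present in RS4;11 and SEM, and these are called the MLL-rearranged lines below. NALM6 and REH lack it. Each group thus has 2 lines, with 1 library per line. Each line descends from the leukemia of a single patient and carries lesions of its own (as background, REH is known for an ETV6-RUNX1 fusion and NALM6 for a DUX4 rearrangement), so effects of the translocation and of a single line cannot be told apart with 2 lines per group. Levels are CPM, the count of a gene scaled so that each library sums to 1e6, and log2 fold changes are lines with t(4;11) over lines without it.

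The count total was 51872617 in RS4;11 and 33620574 in SEM, against 44849858 in NALM6 and 84212986 in REH. A floor of 3 counts stood between 0.0356 CPM (REH) and 0.0892 CPM (SEM). The defining B-lineage genes CD79A, CD22, PAX5 and EBF1 exceeded 100 CPM in each line, but other precursor B markers did not. SEM was low in BLNK (0.179 CPM), CD24 (6.01 CPM) and CD79B (9.73 CPM), REH had 0.226 CPM of VPREB1, and CD34 was under 1 CPM in all 4 lines. Of the 11 precursor B markers 5 were lower in both MLL-rearranged lines (28.3% of 13,844 genes tested) and 0 higher (19.0%). The 5 were BLNK, CD24, CD79B, CD22 and IGLL1. The authors' deposited Cuffdiff table called 3 lower at q under 0.05, against 2.34% of all genes called in either direction. It gave q = 0.04495 for BLNK and 0.00418 for CD24 and CD79B. By edgeR's quasi-likelihood test their adjusted p-values were 0.415, 0.546 and 0.549. In the authors' deposited DESeq table the adjusted p was 0.131 for BLNK, 0.0175 for CD24 and 0.0252 for CD79B. Mast cell markers were under 1 CPM in every line for all 7 genes, and the T cell receptor genes CD3D, CD3E and CD3G had 0 counts throughout. The 9 T cell markers summed to 22.2 CPM in NALM6, nearly all of it CD4, and to 3.33 CPM or less in each other line. Of the 12 stromal markers, the fibroblast genes COL1A2, DCN and LUM also had 0 counts in all 4 libraries, but others were found. VIM had 711.5 CPM or more in every line. COL1A1 had 1.79 CPM in RS4;11 and 4.16 in SEM, against 0.245 in NALM6 and 3.04 in REH. PECAM1 reached 15.2 CPM in SEM. Without VIM the list summed to 5.80 CPM in RS4;11 and 19.45 in SEM, against 0.491 in NALM6 and 3.84 in REH. In bulk RNA, fewer cells with a transcript and less transcript per cell cannot be told apart. The p-values by edgeR set the difference between groups against the spread between the 2 lines within each group. That spread was estimated partly from the other genes tested. The authors' deposited p-values come from their own fits, whose settings are not known here.

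Of the 10 receptors, 4 were at 1 CPM or more in every line (INSR, IGF1R, PDGFRB and TYRO3). CSF1R was above that level in 3 lines, KIT, PDGFRA and MERTK in 1 line each, and AXL and ROR1 in none. In RS4;11, SEM and NALM6 5 of the 10 reached 1 CPM, and REH had 7. PDGFRA was, per length, the most abundant of them in NALM6 and close to absent elsewhere. KIT was found in REH alone. The CSF1R and PDGFRB pair was lowest in NALM6.

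**Figure D1:**
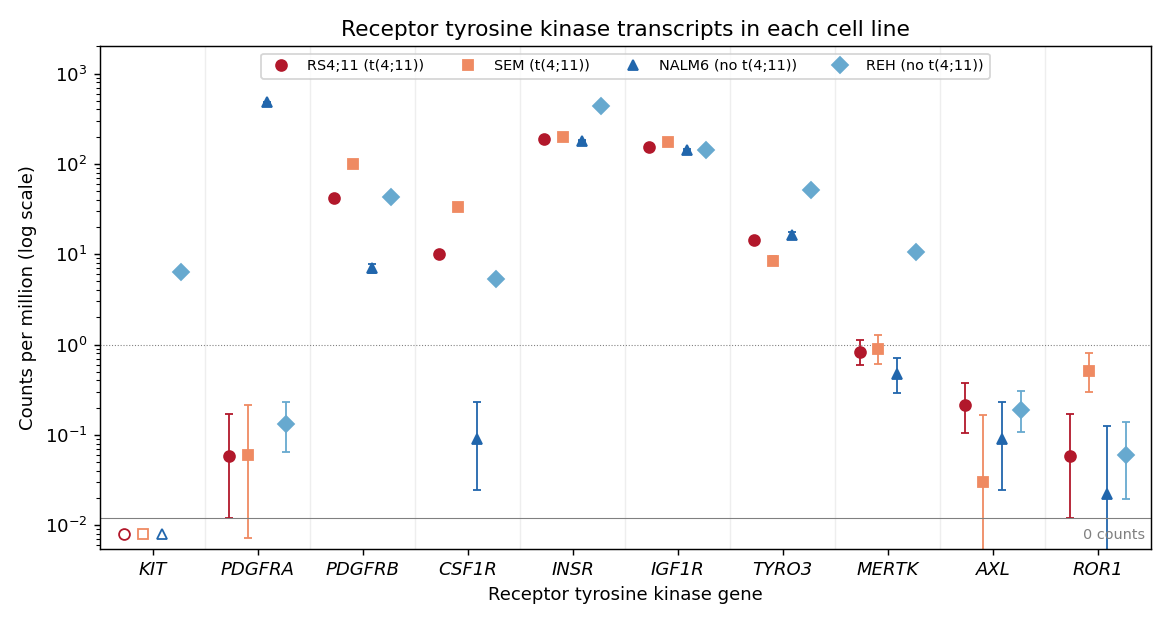
Level of each receptor gene in each line, in CPM on a log axis, with exact 95% Poisson intervals that cover counting error only. Open symbols under the grey line mark libraries with 0 counts, and the dotted line marks 1 CPM. KIT and PDGFRA each stand out in a single line, and IGF1R is level across all 4.

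Because PDGFRA and KIT, and CSF1R and PDGFRB, are neighbours in the genome and yet differ between lines, the 250 bases before their annotated starts are shown. They are from RefSeq on GRCh38.p14, 5′ to 3′ on the gene's strand, with CpG dinucleotides in capitals. CSF1R and PDGFRA have 2 annotated starts each. Counts per gene do not say which start was used.
PDGFRA first start (chr4:54229043-54229292, plus strand): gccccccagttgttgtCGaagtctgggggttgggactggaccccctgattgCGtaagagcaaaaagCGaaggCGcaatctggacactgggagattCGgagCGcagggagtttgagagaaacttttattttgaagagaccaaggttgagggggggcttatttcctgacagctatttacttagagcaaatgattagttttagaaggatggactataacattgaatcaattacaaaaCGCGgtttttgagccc
PDGFRA second start (chr4:54233710-54233959, plus strand): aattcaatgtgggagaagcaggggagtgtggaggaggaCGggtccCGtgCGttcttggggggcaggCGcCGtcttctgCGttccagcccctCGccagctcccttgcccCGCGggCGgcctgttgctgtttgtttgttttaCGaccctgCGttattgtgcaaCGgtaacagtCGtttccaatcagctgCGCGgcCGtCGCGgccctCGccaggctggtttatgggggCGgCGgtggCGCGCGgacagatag
KIT (chr4:54657707-54657956, plus strand): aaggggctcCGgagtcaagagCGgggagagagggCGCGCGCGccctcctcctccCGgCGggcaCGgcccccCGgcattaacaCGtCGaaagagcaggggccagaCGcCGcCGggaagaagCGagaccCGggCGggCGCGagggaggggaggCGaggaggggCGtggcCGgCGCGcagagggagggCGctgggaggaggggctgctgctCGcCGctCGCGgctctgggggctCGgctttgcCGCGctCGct
PDGFRB (chr5:150155846-150156095, minus strand): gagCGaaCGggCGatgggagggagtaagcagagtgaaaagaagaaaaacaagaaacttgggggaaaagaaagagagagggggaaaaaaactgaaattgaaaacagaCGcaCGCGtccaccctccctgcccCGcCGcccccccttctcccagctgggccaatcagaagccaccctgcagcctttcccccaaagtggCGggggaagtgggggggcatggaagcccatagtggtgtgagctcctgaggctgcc
CSF1R upstream start (chr5:150113366-150113615, minus strand): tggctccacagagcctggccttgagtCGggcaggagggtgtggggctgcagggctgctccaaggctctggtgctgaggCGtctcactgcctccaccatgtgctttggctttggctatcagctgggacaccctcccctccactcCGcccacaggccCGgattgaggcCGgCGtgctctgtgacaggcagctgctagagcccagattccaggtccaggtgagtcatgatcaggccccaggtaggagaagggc
CSF1R downstream start (chr5:150086555-150086804, minus strand): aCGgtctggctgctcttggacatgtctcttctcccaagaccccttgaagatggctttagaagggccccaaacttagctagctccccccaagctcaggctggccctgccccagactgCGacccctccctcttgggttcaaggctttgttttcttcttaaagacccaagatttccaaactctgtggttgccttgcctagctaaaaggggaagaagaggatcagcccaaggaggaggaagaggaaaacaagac

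The windows differed widely in CpG content, against a median of 11 CpG over 27,303 promoter windows of the same length. KIT had 34 CpG and a GC content of 76.4%. The windows of PDGFRA had 8 and 25 CpG, PDGFRB had 9, and the windows of CSF1R had 6 and 2. The downstream CSF1R window, which precedes the start known from macrophages, held the RUNX letters TGTGGT once and the purine-rich ETS letters GAGGAA at 2 positions, on either strand. TGTGGT occurred in 10.9% of all windows and GAGGAA in 23.4%, and neither was found in the other windows shown. Windows of the genes found in all 4 lines were not uniform either, with 48 CpG at IGF1R, 28 at INSR, 39 and 8 at the starts of TYRO3, and 9 at PDGFRB. MERTK, at 1 CPM or more in 1 line, had 25. The receptors present in every line thus had windows far above the median and windows near it, since 46.2% of all windows had fewer CpG than that of PDGFRB. AXL and ROR1, under 1 CPM in every line, had 4 and 13 CpG at the starts of AXL and 24 at ROR1.

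KIT, the receptor for stem cell factor on blood progenitors and mast cells, had 0 counts in both MLL-rearranged lines, against 0 in NALM6 and 529 (6.28 CPM) in REH. It was thus detected only in REH, where it stood at least 93.9-fold above the floor of NALM6. The mean over the MLL-rearranged lines was at least 42.7-fold below the mean of the other group against a floor of 3 counts per library. The direction of that group difference comes from 1 line, since NALM6 without t(4;11) had 0 counts as well. The mast cell markers summed to 0.226 CPM in REH, against 0.0964 in RS4;11, 0.268 in SEM and 0.290 in NALM6. In REH TPSB2, HDC and MS4A2 had 0 counts. The others were at their highest there, though near the floor, with 14 counts of GATA2, 3 of CMA1 and 1 each of TPSAB1 and CPA3. MPO, a myeloid granule enzyme, was also high in REH alone, with 0.347 CPM in RS4;11 and 0.238 in SEM, against 0.134 in NALM6 and 34.2 in REH. Its part in the result was not tested.

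PDGFRA, a receptor for platelet-derived growth factors of mesenchymal cells, had 3 and 2 counts in RS4;11 and SEM (0.0578 and 0.0595 CPM), against 21,602 counts (482 CPM) in NALM6 and 11 counts (0.131 CPM) in REH. NALM6 held 99.9% of the summed CPM of the 4 lines. Its level was 3687 times that of REH, with an exact 95% interval for counting error from 2060 to 7388. Both MLL-rearranged lines were below both other lines, but REH differed from them by far less than NALM6 did. PDGFRA and KIT each reached the minimum of the low-count filter in too few libraries and were not tested by the main test. With the filter removed the adjusted p was 0.546 for PDGFRA and 0.602 for KIT by edgeR's quasi-likelihood test. The stromal markers without VIM summed to 0.491 CPM in NALM6, the lowest sum of the 4 lines, so they did not move with PDGFRA.

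PDGFRA (chr4:55095264-55164412, hg19) and KIT (chr4:55524095-55606881) lie 359.7 kb apart on chromosome 4, and each was high in a different line. Of 5 non-member neighbours of each, only 1 of PDGFRA and 2 of KIT reached 1 CPM. None of these had 80% or more of its summed CPM in the line where the receptor was highest. KDR, a vascular endothelial growth factor receptor on the far side of KIT, had 0.463 CPM in RS4;11 and 0.744 in SEM, against 0 counts in NALM6 and in REH. KIT was thus found in REH alone and PDGFRA mainly in NALM6. KDR was instead found in both MLL-rearranged lines, with 24 counts in RS4;11 and 25 in SEM, at a level under 1 CPM.

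PDGFRB, the other receptor of platelet-derived growth factors, had 41.7 CPM in RS4;11 and 99.97 in SEM, against 7.001 in NALM6 and 42.7 in REH. RS4;11 and REH were nearly equal, and whether the groups overlapped turned with the scaling. By column sums REH was above RS4;11, whereas with TMM-scaled libraries PDGFRB had 43.7 CPM in RS4;11 and 102.5 in SEM, against 6.73 in NALM6 and 41.4 in REH, without overlap. The MLL-rearranged mean was 70.8 ± 41.2 CPM and the other mean 24.9 ± 25.3 CPM (SD, n = 2 each), and the log2 fold change of 1.60 had a standard error of 1.045 (edgeR quasi-likelihood, adjusted p = 0.598). Without REH it was 3.43, and without NALM6 0.83 and without SEM 0.87.

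CSF1R, the receptor for the macrophage growth factor CSF1, had 10.02 CPM in RS4;11 and 33.3 in SEM, against 0.0892 in NALM6 (4 counts) and 5.27 in REH. Both MLL-rearranged lines were above both others, with NALM6 far below REH. The log2 fold change was 3.10 with a standard error of 1.99 (edgeR quasi-likelihood, adjusted p = 0.591). Without REH it was 7.97 and without SEM 2.03. Macrophage and monocyte markers summed to 6.4 CPM in RS4;11 and 29.45 in SEM, against 17.5 in NALM6 and 39.4 in REH. Among them CD14 stayed under 0.3 CPM in every line, and 2 to 4 of the 9 genes reached 1 CPM in a line. The genes were highest in different lines. MPO made up 34.2 CPM of the sum in REH. LYZ was highest in NALM6, at 8.14 CPM, where CSF1R had 4 counts. In SEM CD33 stood at 11.1 CPM, CD68 at 11.2, LYZ at 4.015 and FCGR1A at 2.29. The part of these genes in the level of CSF1R was not tested.

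CSF1R (chr5:149432854-149492935, hg19) and PDGFRB (chr5:149493402-149535422) are transcribed in the same direction with 466 bases between their annotated loci. SEM was highest and NALM6 lowest for both genes. NALM6 was 14.3 times below SEM for PDGFRB (exact 95% interval 12.7 to 16.1) and 374 times below for CSF1R (146 to 1375). Since they share a strand, counts per gene do not separate a transcript that runs from PDGFRB into CSF1R from CSF1R itself. Of the non-member neighbours of CSF1R, 3 reached 1 CPM, and these differed by between 2.385-fold and 2.78-fold from their lowest to their highest line. All 3 were lowest in NALM6 as well, with 29.2 CPM of SLC26A2, 41.8 of HMGXB3 and 3.77 of TIGD6 there.

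INSR (chr19:7112266-7294011, hg19), the insulin receptor, had 189 CPM in RS4;11 and 201 in SEM, against 181 in NALM6 and 440 in REH. RS4;11, SEM and NALM6 were close to each other, and REH stood 2.19 times above the next line (exact 95% interval 2.14 to 2.25). The log2 fold change was -0.57 with a standard error of 0.49 (edgeR quasi-likelihood, adjusted p = 0.679). It was 0.20 without REH, so the sign of the group difference rested on that line.

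IGF1R (chr15:99192761-99507759), the receptor for insulin-like growth factors, had 152 CPM in RS4;11 and 175 in SEM, against 141 in NALM6 and 143 in REH. It varied least of the 10 receptors, by 1.24 times between its lowest and highest line, and the MLL-rearranged lines were both above the others. The mean was 163 ± 15.9 CPM in the MLL-rearranged lines and 142 ± 1.27 CPM in the others (SD, n = 2 each). Its log2 fold change of 0.30 had a standard error of 0.15 (edgeR quasi-likelihood, adjusted p = 0.524) and lay between 0.22 and 0.39 when each line was left out in turn. The small difference depends in part on scaling: with column sums in place of TMM factors it was 0.20, and that scaling moved the median of all genes by -0.10. The annotated locus of IGF1R overlaps a microRNA gene, which had 0 counts.

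TYRO3 (chr15:41851220-41871536, hg19), a TAM receptor that binds GAS6 and protein S on dying cells, had 14.2 CPM in RS4;11 and 8.51 in SEM, against 16.3 in NALM6 and 50.95 in REH. Both MLL-rearranged lines were below both others, though RS4;11 and NALM6 were close. The log2 fold change was -1.46 with a standard error of 0.72 (edgeR quasi-likelihood, adjusted p = 0.515), and -0.41 without REH. MERTK (chr2:112656191-112786945), the TAM receptor with which macrophages engulf dying cells, had 0.829 CPM in RS4;11 and 0.892 in SEM, against 0.468 in NALM6 and 10.7 in REH. REH held 83.0% of the sum and NALM6 was the lowest line, so the groups overlapped. Its log2 fold change of -2.60 (standard error 1.62, edgeR quasi-likelihood adjusted p = 0.583) turned to 0.97 without REH.

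The remaining TAM receptor, AXL (chr19:41725108-41767671, hg19), stayed close to the detection floor, with 11 and 1 counts in RS4;11 and SEM, against 4 and 16 counts in NALM6 and REH (0.212, 0.0297, 0.0892 and 0.190 CPM). The counting intervals of these 4 values overlapped pairwise, and the largest ratio, RS4;11 over SEM, was 7.13 with an exact 95% interval from 1.04 to 307. ROR1 (chr1:64239690-64644707), an oncofetal receptor used as a surface target in B-cell malignancies, had 3 and 17 counts in RS4;11 and SEM, against 1 and 5 counts in NALM6 and REH. SEM, at 0.506 CPM, was above the counting intervals of the other lines, at a level still under 1 CPM. Neither AXL nor ROR1 passed the low-count filter, and with the filter removed the adjusted p was 0.988 for AXL and 0.639 for ROR1 by edgeR's quasi-likelihood test.

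The comparison of lines with and without t(4;11) called none of the receptors. The main test, edgeR's quasi-likelihood test with Benjamini-Hochberg adjustment over 13,844 genes, tested 6 of the 10 and called 0 of them at an adjusted p under 0.05. It called 0% of all genes tested. At an unadjusted p under 0.05 it had 0 of the 6, against 12.0% of all genes. DESeq2 called 0 of the 6 (9.74% of all genes), with 0.290 as the lowest adjusted p among them. The exact test of edgeR called 0 of the 6 (2.95% of all genes), with 0.823 as the lowest. The call count was 0 of 10 in the authors' deposited DESeq table (1.56% of all genes), with the lowest adjusted p, 0.655, for PDGFRA. Of the 8 tested in the authors' deposited Cuffdiff table, 0 were called (2.34% of all genes), with the lowest q, 0.241, for PDGFRB. FLT3 itself had 318 CPM in RS4;11 and 2063 in SEM, against 22.2 in NALM6 and 133 in REH.

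By CPM from column sums, groups did not overlap for 4 of the 10 receptors. CSF1R and IGF1R were higher in both MLL-rearranged lines, where 16.8% of all genes with a count were, and PDGFRA and TYRO3 were lower, where 24.7% of all genes were. With TMM-scaled libraries, and with the authors' deposited DESeq normalized counts, PDGFRB and ROR1 were also higher in both MLL-rearranged lines. That made 4 of 10 higher, against 20.8% of all genes with a count, and 2 of 10 lower, against 20.9%. For ROR1 the separation rested on 3 counts in RS4;11 and 5 in REH. Concentration in a single line is given as a further description. Of the 7 receptors that reached 10 CPM in any line, 2 (PDGFRA and MERTK) had at least 80% of their summed CPM in 1 line, against 4.62% of the 10,596 genes at that level. Of the 8 that reached 1 CPM, 3 did so in exactly 1 line, against 9.26% of all such genes. Whether these shares differ was not tested.

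**Figure D2:**
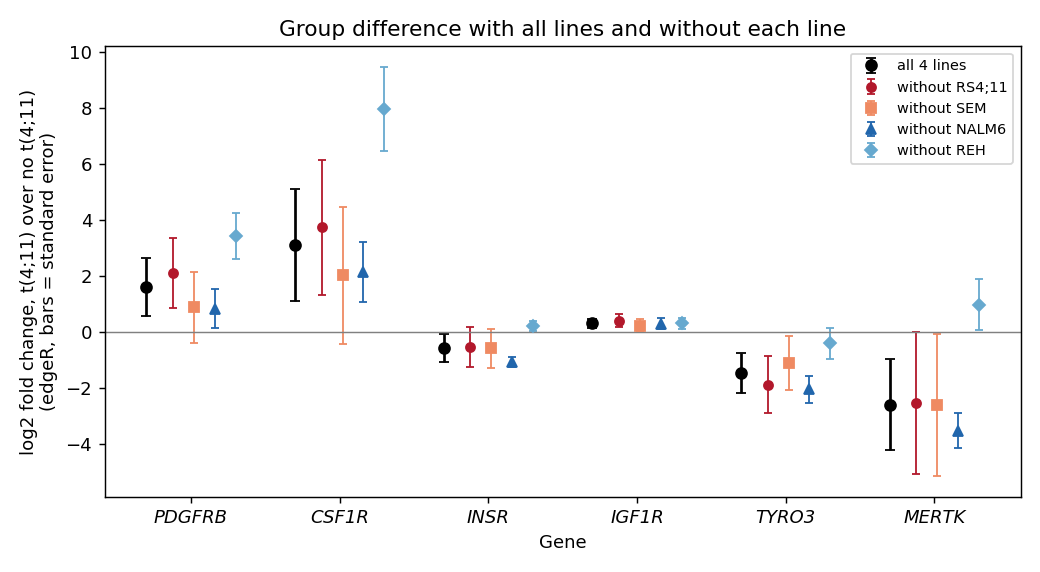
Log2 fold change of t(4;11) over no t(4;11) lines for the 6 receptors tested, by edgeR with standard errors, from all 4 lines (black) and after leaving out each line. Leaving out REH turns INSR and MERTK to positive values and moves CSF1R to 7.97, while IGF1R stays between 0.22 and 0.39.

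Levels of the 10 receptors were compared with each other after scaling by length, as CPM per kb of annotated exon. INSR was the most abundant of the 10 in RS4;11, SEM and REH, at 20.8, 22.1 and 48.4 CPM per kb. In NALM6 PDGFRA came first with 61.2 CPM per kb, ahead of INSR with 19.9 and IGF1R with 11.6. PDGFRB came second in SEM, with 17.5 CPM per kb against 14.3 for IGF1R, and ranked 3 of 10 in RS4;11 and REH. TYRO3 ranked 5 of 10 in the MLL-rearranged lines and 4 of 10 in NALM6 and REH. In the authors' deposited Cuffdiff table, which gives FPKM per group, INSR had 22.3 in the MLL-rearranged group and 33.4 in the other, and PDGFRA had 0.00921 in the MLL-rearranged group and 35.4 in the other. In the same table by the authors, as deposited, PDGFRB had 12.8 FPKM in the MLL-rearranged group and 4.22 in the other. For scale, FLT3 had 82.8 and 537 CPM per kb in RS4;11 and SEM, above every one of the 10. In NALM6 it had 5.77 CPM per kb, below PDGFRA, INSR and IGF1R, and in REH 34.5, below INSR.

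**Figure D3:**
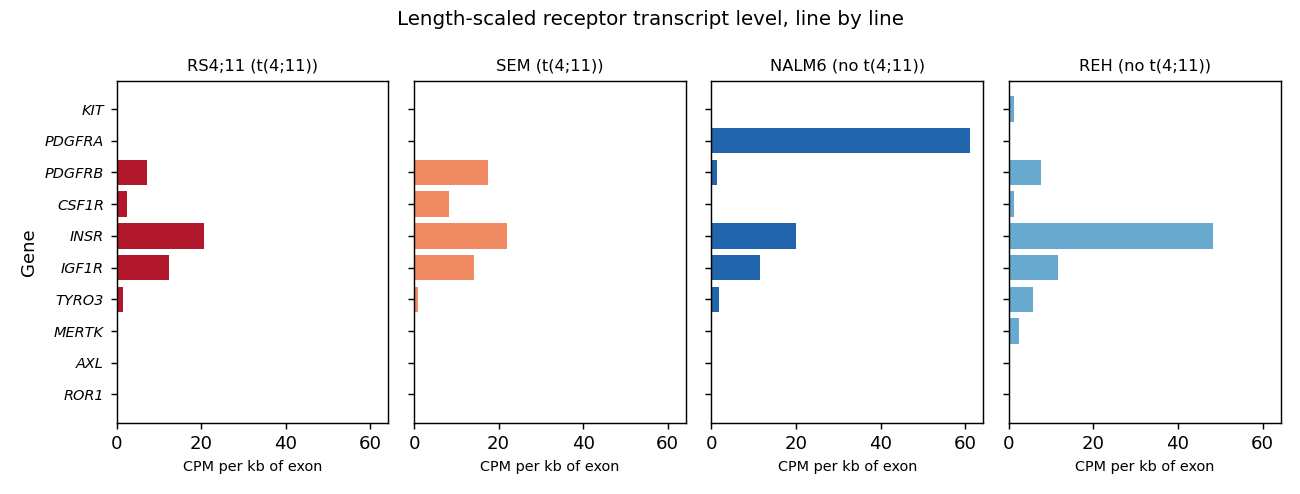
Level of the 10 receptor genes in each line in CPM per kb of annotated exon, on a linear axis from 0. INSR leads in RS4;11, SEM and REH, and PDGFRA leads in NALM6 at 61.2 CPM per kb.

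The other receptor tyrosine kinases showed how far the lines differ in this family. With the 10 receptors, FLT3 and 47 others, 58 genes were examined, and 32 reached 1 CPM in at least 1 line. RS4;11 and SEM each had 17 of them at that level, against 18 in NALM6 and 28 in REH. Over all genes tested the numbers at 1 CPM were 11,684 in RS4;11, 11,749 in SEM, 11,490 in NALM6 and 11,965 in REH. These totals leave out genes that failed the low-count filter, whereas the receptor numbers include them. KIT, EPHB2 (11.3 CPM in REH) and AATK (25.3 CPM in REH) are examples. The totals thus cannot show whether the larger number in REH is particular to receptors. Of 14 other receptors that reached 10 CPM, 5 had at least 80% of their summed CPM in 1 line (4.62% of all genes). FLT1, a receptor for vascular endothelial growth factor, had 0.0386 CPM in RS4;11 and 0.535 in SEM, against 285 in NALM6 and 29.5 in REH, and was thus highest in the line that also had PDGFRA.

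Among the 22 other receptors tested, 5 were higher and 6 lower in both MLL-rearranged lines, against 19.0% and 28.3% of all genes tested, with a median log2 fold change of -0.69 (all genes -0.02). At an unadjusted p under 0.05 edgeR's quasi-likelihood test had 6 of the 22, against 12.0% of all genes, and at an adjusted p under 0.05 it had 0, as in each list that follows. The authors' deposited DESeq table called 1 lower, RYK, a WNT co-receptor with 0.925 CPM in RS4;11 and 6.72 in SEM, against 30.5 in NALM6 and 44.5 in REH. The authors' deposited Cuffdiff table called 1 lower, EPHB4, a receptor for ephrin-B2, with 19.7 CPM in RS4;11 and 21.3 in SEM, against 79.1 in NALM6 and 207 in REH. In the other of the authors' deposited tables RYK had q = 0.238 and EPHB4 an adjusted p of 0.665. By edgeR's quasi-likelihood test the adjusted p was 0.412 for RYK and 0.329 for EPHB4. FGFR1, a fibroblast growth factor receptor, was among the 3 with the highest mean CPM, which is not scaled by length, with 1.62 CPM in RS4;11 and 52.97 in SEM, against 64.6 in NALM6 and 205 in REH.

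**Figure D4:**
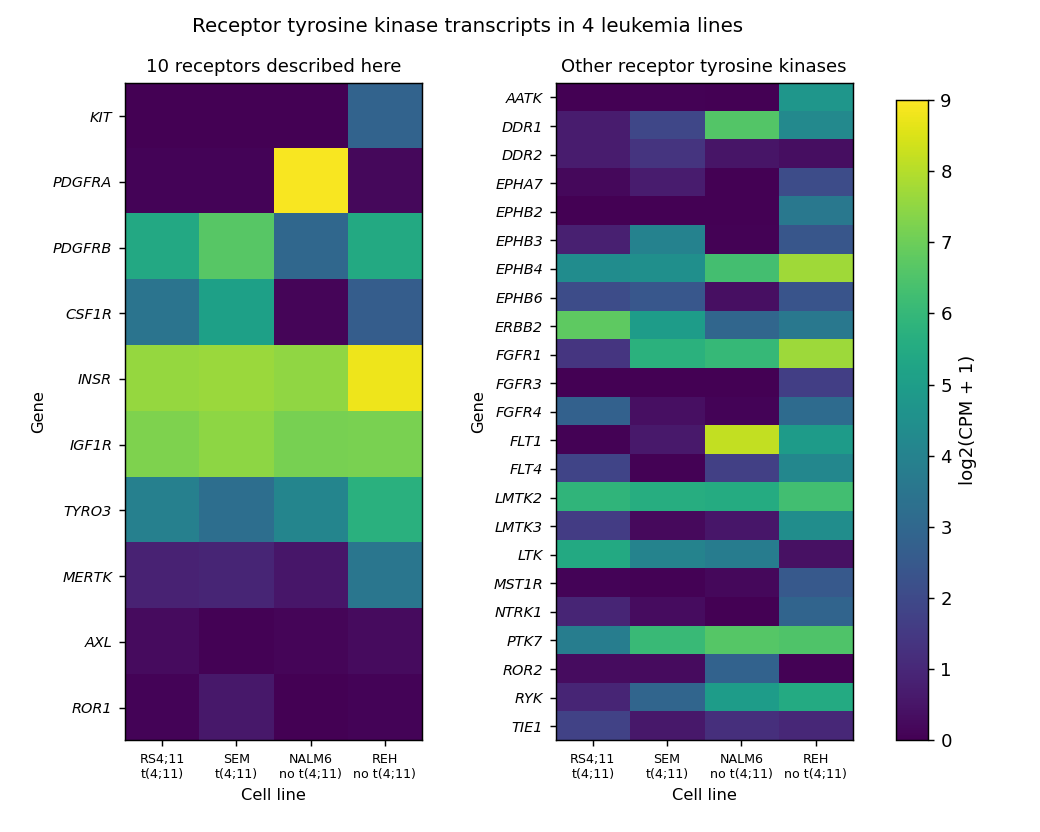
Levels, as log2(CPM + 1), of the 10 receptors (left) and of the 23 other receptor tyrosine kinases that reached 1 CPM in any line (right), with the MLL-rearranged lines in the first 2 columns. Bright isolated tiles, such as PDGFRA and FLT1 in NALM6, mark genes found mainly in 1 line.

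Ligands of the receptors were scarce. Of 13 ligand genes, 6 reached 1 CPM in any line and none exceeded 10 CPM, and KITLG, the stem cell factor gene, was found in SEM alone with 11 counts. INS, IGF2 and WNT5A had 0 counts in all 4 lines. GAS6 had 2.24 CPM in RS4;11 and 0.922 in SEM, against 0.201 in NALM6 and 8.93 in REH. It was highest in REH, as were its receptors TYRO3 and MERTK, while AXL, which also binds GAS6, was near the floor in every line and highest in RS4;11. PROS1, which encodes protein S, had 1.62 CPM in RS4;11 and 6.04 in SEM, against 0.0892 in NALM6 and 2.10 in REH.

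The PDGF ligands were spread over different lines. PDGFA had 0.694 CPM in RS4;11 and 1.31 in SEM, against 5.37 in NALM6 and 5.99 in REH (log2 fold change -2.41, standard error 0.66, edgeR quasi-likelihood adjusted p = 0.377). PDGFC and PDGFD, with 103 and 210 counts, were present mainly in SEM, where PDGFRB was highest and PDGFRA had 2 counts. PDGFC had 0 counts in RS4;11 and NALM6 and 1 in REH, and PDGFD had 0 in those 3 lines. CSF1 had 0.328 CPM in RS4;11 and 0.654 in SEM, against 0.647 in NALM6 and 3.62 in REH. Neither deposited table called a ligand. Of the 4 tested by edgeR, 1 was lower in both MLL-rearranged lines (28.3% of all genes) and none higher (19.0%), with a median log2 fold change of -1.73. At an unadjusted p under 0.05 the quasi-likelihood test had 1 of the 4, against 12.0% of all genes.

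IGFBP7 and IGFBP2, which bind insulin-like growth factors outside the cell, spanned wider ranges over the lines than IGF1R did. IGFBP7 had 79.4 CPM in RS4;11 and 62.6 in SEM, against 2 counts (0.0446 CPM) in NALM6 and 22.8 CPM in REH. The authors' deposited DESeq table gave it as higher (adjusted p = 0.001425). In the authors' deposited Cuffdiff table its q was 0.864, and its adjusted p was 0.681 by edgeR's quasi-likelihood test. IGFBP2 had 29.9 and 59.4 CPM in the MLL-rearranged lines, against 121 and 403 CPM in NALM6 and REH, and was called lower in the authors' deposited Cuffdiff table (q = 0.00418) but not in the authors' deposited DESeq table (adjusted p = 0.996) or by edgeR's quasi-likelihood test (adjusted p = 0.393). IGF2R, which clears IGF2 from the surface, had 166 CPM in RS4;11 and 225 in SEM, against 347 in NALM6 and 218 in REH. Of the 9 genes, 5 were tested, with 1 higher (19.0% of all genes) and 2 lower (28.3%) in both MLL-rearranged lines and a median log2 fold change of -0.43. At an unadjusted p under 0.05 edgeR's quasi-likelihood test had 1 of the 5, against 12.0% of all genes.

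Of 33 adaptors and proximal effectors, 30 were tested. In both MLL-rearranged lines 4 were higher and 13 lower, against 19.0% and 28.3% of all genes, with a median log2 fold change of -0.20. At an unadjusted p under 0.05 edgeR's quasi-likelihood test had 7 of the 30, against 12.0% of all genes. IRS1, the docking protein of INSR and IGF1R, had 53.96 CPM in RS4;11 and 64.1 in SEM, against 22.5 in NALM6 and 11.7 in REH. It was called higher by the authors' deposited DESeq table (adjusted p = 0.0280) but not by the authors' deposited Cuffdiff table (q = 0.206) or edgeR's quasi-likelihood test (adjusted p = 0.336). PLCG1, the phospholipase recruited to activated receptors, had 38.3 CPM in RS4;11 and 28.9 in SEM, against 113 in NALM6 and 198 in REH, and was lower (q = 0.0232) in the authors' deposited Cuffdiff table. Its adjusted p was 0.119 in the authors' deposited DESeq table and 0.310 by edgeR's quasi-likelihood test. The 3 with the highest mean CPM were the phosphatase PTPN11, the phosphoinositide 3-kinase subunit PIK3R1 and the docking protein GAB1. PTPN11 had 290 CPM in RS4;11 and 345 in SEM, against 382 in NALM6 and 303 in REH, a log2 fold change of -0.01 (standard error 0.20). PIK3R1 had 233 CPM in RS4;11 and 208 in SEM, against 468 in NALM6 and 357 in REH, and GAB1 had 244 CPM in RS4;11 and 116 in SEM, against 465 in NALM6 and 170 in REH.

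Of 25 attenuators of receptor signalling, 21 were tested, with 6 higher (19.0% of all genes) and 4 lower (28.3%) in both MLL-rearranged lines and a median log2 fold change of 0.11. With TMM-scaled libraries 8 were higher (24.2% of all genes) and 2 lower (23.4%). At an unadjusted p under 0.05 edgeR's quasi-likelihood test had 3 of the 21, against 12.0% of all genes. SOCS2, a feedback inhibitor of cytokine signalling, had 8.69 CPM in RS4;11 and 0.357 in SEM, against 149 in NALM6 and 112 in REH, and was called lower in the authors' deposited DESeq table (adjusted p = 2.61e-13, against q = 0.0597 in the authors' deposited Cuffdiff table and an adjusted p of 0.415 by edgeR's quasi-likelihood test). ADAM10, a protease that sheds membrane proteins, had 381 CPM in RS4;11 and 568 in SEM, against 187 in NALM6 and 81.0 in REH, and was higher in both of the authors' deposited tables (DESeq adjusted p = 0.0214, Cuffdiff q = 0.00418, against 0.370 by edgeR's quasi-likelihood test). UBASH3B, a phosphatase that acts on receptor complexes, had the highest mean CPM, with 817 CPM in RS4;11 and 1102 in SEM, against 170 in NALM6 and 872 in REH. The adaptor DOK3 had 446 CPM in RS4;11 and 31.5 in SEM, against 516 in NALM6 and 396 in REH. The phosphatase PTPN6 had 439 CPM in RS4;11 and 442 in SEM, against 281 in NALM6 and 57.2 in REH.

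Genes with the profile most like that of each receptor were sought among the 10,595 other genes at 10 CPM or more in any line, by Euclidean distance over the 4 lines in centred log2(CPM + 1). IGF1R, nearly level over the lines, had 3338 genes within a distance of 0.5, and RAB21 was the nearest at 0.0238, before RNF111 and RRAGA. INSR had 193 genes within 0.5, led by CUL7, with 25.1 CPM in RS4;11 and 26.3 in SEM, against 24.7 in NALM6 and 56.2 in REH, and followed by PICK1 and CLDN12. TYRO3 had 28, led by SDCCAG8 at a distance of 0.0845, ARRDC2 and SLC22A23. MERTK had 11, led by SESN3 at 0.224, PPP1R13B and AK1. PDGFRB had 4, led by PCNXL2 at 0.179, with ZYX and TIMP1 at distances of 0.319 and 0.320. CSF1R and PDGFRA had none, and their nearest genes included KIAA1324L at 0.656, FAM176B and PTGS1 for CSF1R. For PDGFRA the nearest gene stood at 0.8996 and ANKRD30B came next at 1.21. The distance was not scaled by how widely a gene varied, so a level gene has many others within 0.5 and a widely varying gene few. These counts therefore do not show whether the profiles of CSF1R and PDGFRA are unusual in shape. Of the 48 other genes next to the 10 receptors (3 on each side), 1 was called in any table: LOC541471, near MERTK, higher in the authors' deposited Cuffdiff table, with 0.0193 CPM in RS4;11 and 2.38 in SEM, against 0 counts in NALM6 and REH.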

How the data were processed

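The labels name each of the 4 lines and its t(4;11) status. Replicate numbers (RS4;11 and NALM6 1, SEM and REH 2) follow listing order and pair no lines. Per the submitters' processing notes the tools were TopHat, TopHat2 2.0.4, CASAVA 1.8.2, HTSeq, Cuffdiff and DESeq, with hg19. No source used here gives the gene annotation or the settings. The TruSeq RNA kit named in the labels' protocols does not, as background, mark strand.

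Per the file headers, 1 of the deposited tables gives a count by HTSeq for each gene in each line, the authors' DESeq normalized counts (a signal: count over 1 size factor per line), the fold change as a ratio of control to t(4;11), and DESeq p-values. Per the file headers, the deposited Cuffdiff table holds FPKM per group, a log2 fold change of control over t(4;11), and p-values and q-values. Signs of both were turned to t(4;11) over control. Locus starts are counted from 1.

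CPM used column sums. The test was edgeR 4.0.16 (R 4.3.3) on all deposited counts: TMM, filterByExpr, glmQLFit and glmQLFTest, two-sided, Benjamini-Hochberg at 0.05 over 13,844 genes, with 2 residual degrees of freedom. The standard error is the fold change over the square root of F. Tests were checked on simulated data with large planted changes and less spread than in these data, so the check does not measure their power here. Alternatives were DESeq2 1.42.0, edgeR's exact test, RLE or column-sum scaling, no filter, and each line left out. Intervals are exact at 95%. They and the floor of 3 counts cover counting error only, since reads are not independent molecules. Exon lengths are the union over coding transcripts of GENCODE 29 (GRCh38), matched by symbol. RefSeq promoter windows were found for 10 of 10 receptors. Figures used matplotlib 3.10.9 in Python 3.11.15.

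The members and gene lists were chosen with earlier results of these data known. The 10 receptors are all named. From each list, genes called in any table (at most 6) and the 3 with the highest mean CPM were named, plus ligands at 1 CPM or more. Similar genes are the 3 nearest of each receptor, of which 2 near PDGFRA are not reported here. KDR and FLT3, the markers and the ligands under 1 CPM were chosen for their relation to the receptors, with values seen.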

Additional observations from a re-analysis of the deposited data

How the results depend on the processing

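No result called was lost, since the main test called 0 of the 6 tested receptors and also 0 under RLE scaling, column sums, no filter, DESeq2, edgeR's exact test, an adjusted p under 0.1 and each line left out. For the 82 tested genes of the other pathway lists the main test called 0, as it did over all genes. DESeq2 called 17 (5 higher, 12 lower), against 9.74% of all genes. The exact test of edgeR called 6 (2 higher, 4 lower), against 2.95% of all genes. The cause of these differences was not tested. Of 24 receptor fold changes with a line left out, 2 reversed, both without REH. INSR ranged from -1.07 to 0.20 and MERTK from -3.53 to 0.97 on the log2 scale. CSF1R ranged from 2.03 to 7.97, PDGFRB from 0.83 to 3.43 and TYRO3 from -2.06 to -0.41. A left-out line leaves 1 line in its group, which is assumed to vary like the other group. Under TMM-scaled library sizes the mean of PDGFRA in the MLL-rearranged lines was 0.0608 CPM and that of IGF1R in the other lines 137 CPM, in each case a shift beyond the SD of 2 lines. The number of receptors with groups that do not overlap was 4 by column sums and 6 both with TMM-scaled libraries and with the authors' deposited DESeq normalized counts, since PDGFRB and ROR1 were added as higher. The same TMM scaling of the other lists was chosen after seeing the data. It moved the 30 tested adaptors to 5 higher and 12 lower and the 5 tested genes of the binding protein list to 1 higher and 1 lower. The other receptors and the ligands stayed at the same counts. By that scaling 24.2% of all genes tested were higher and 23.4% lower. No paired analysis was made, since the 4 libraries are of 4 different lines and the labels pair none of them. With 2 lines per group, and counts of 5 or fewer behind PDGFRA, AXL, ROR1 and CSF1R in some lines, ratios there carry wide counting intervals.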
